A study of Mus musculus with 32 samples.

Results

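This comparison set the lungs of glutathione reductase knockout mice (Gsr-KO) beside those of wild-type mice (Gsr-WT) before birth, at embryonic day 19 (E19). It used the 8 E19 arrays of 32 in the study, 4 per genotype, chosen by their titles, and all 13345 genes tested. Every animal was of the C3H/HeN strain, and the knockout allele is not described in the sources used here. The E19 lungs had no oxygen exposure. RNA came from a portion of each lung and was hybridised to Affymetrix Mouse 430_2 arrays, 1 array per animal. The other 24 arrays are postnatal lungs, at day 5 (P5) or day 56 (P56), after room air or 100% oxygen between P0 and P5, with 3 arrays per group. They entered the fit and a test of whether the genotype difference at E19 departed from that after birth.

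Glutathione reductase uses NADPH to return oxidised glutathione to its reduced form, which peroxidases, glutaredoxins and glutathione S-transferases then use. Just before birth the mouse lung thins its walls, flat type 1 cells spread over a growing capillary net, type 2 cells store surfactant, and cell division slows. These are background facts, and the sections below follow the same order: epithelium, vessels, connective tissue, division, interferon response, and glutathione and oxidant defence.

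Several E19 arrays stood apart in transcripts of other tissues or in RNA quality, and these values bear on every result. The liver transcripts Ahsg, Apoa1 and Ttr had a mean log2 level of 14.33, 13.56 and 14.53 in WT replicates 2, 3 and 4. In WT replicate 1 that level was 7.57, inside the KO range of 5.87 to 9.43, so replicate 1 was the only WT array without a high liver level. KO replicate 1 had a log2 3'/5' ratio of control probe sets of 4.37, against -0.06 to 0.57 on the other arrays, and it received the lowest array weight of the 8, 0.0469. WT replicate 1 correlated more closely with a KO array (r = 0.961, across genes, which are not independent) than with any WT array (0.937). Array totals ran from 31640158 to 35272173 signal units and array medians from 68.4 to 125. High Xist on 2 WT and 2 KO arrays put 2 females and 2 males in each group. The number of arrays limits precision, and the labels do not say whether embryos shared a litter.

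The label check came first. The tested Gsr probe set read 691, 803, 559.9 and 756 in WT and 217, 149.9, 161 and 147 in KO, where arrays are given here and below in the order of replicates 1 to 4. All 4 KO arrays lay below all 4 WT arrays, with a change of -1.90 (SE 0.16) on the log2 scale, and the other Gsr probe set gave -3.33. The two-sided exact permutation p was 0.0286 for both, the smallest that 4 against 4 arrays allows. Some signal remained at 147 to 217 units, and the labels do not say which part of the gene was removed.

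A change below is KO minus WT in log2(signal + 26.3), where 26.3 is the 25th percentile of all values, and a gene is called when its limma adjusted p (Benjamini-Hochberg over all genes) was under 0.05. Of 13345 genes 2023 were called (15.2%), 922 higher in KO (6.91%) and 1101 lower (8.25%). The groups did not overlap for 1345 genes (10.1%), 1042 of them called (7.81%), and 4090 genes had an unadjusted p under 0.05 (30.6%). The median change of all genes was -0.05. The split by direction depended on scaling: with quantile normalization 1246 genes were higher (9.34%) and 829 lower (6.21%), at an all-gene median of 0.05. Centring each array on its median over all probe sets put 2489 higher (18.7%) and 537 lower (4.02%), at an all-gene median of 0.23. Centring moved the all-gene median by 0.28, and list medians smaller than that can change sign with it. A fit of the 8 E19 arrays alone, with 6 residual degrees of freedom, called 40 genes (0.300%). The median standard deviation of a gene was 0.43 in KO and 0.25 in WT at E19, against 0.14 to 0.30 in the postnatal groups. Without KO replicate 1, the array with the high 3'/5' ratio, the KO value was 0.25. Since 1 spread is shared by all groups, p-values for E19 with all 8 arrays are likely too small.

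Further fits took the liver level into account. The fit with the liver covariate and the fit with WT replicate 1 alone both lean on WT replicate 1, the only WT array without a high liver level. They are not separate checks. With the liver level as a covariate that has its own slope at E19, 100 genes were called (0.749%), 43 higher (0.322%) and 57 lower (0.427%). With WT replicate 1 as the only WT array at E19, 60 were called (0.450%), 29 higher and 31 lower, on the assumption that it varies like the other groups. Of the 2023 called genes 1984 kept their sign with the liver covariate and 1835 with WT replicate 1 alone. In all, 92 genes were called in the same direction in the fit of all arrays and with the liver covariate (0.689%), 41 higher (0.307%) and 51 lower (0.382%). Without WT replicate 4 the count of the fit of all groups was 1140. List counts depended on single arrays too: of 76 gene lists with a called gene, 57 had a count that moved by over 1.5 times when 1 of the 8 arrays was left out, 43 of them without WT replicate 4.

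A core of 31 genes (0.232%) was called in the same direction in the fit of all arrays, with the liver covariate, with array weights (1287 called, 9.64%) and in the fit of the E19 arrays alone. Of these 17 were higher in KO and 14 lower, with changes between 1.17 and 2.79 in size. The selection used these arrays, so what follows describes its members. In each of the 31 the groups did not overlap, and the call held without any 1 array, under quantile normalization and under centring. The sign was also the same with WT replicate 1 alone. That adds little, since the core was selected with the liver covariate fit, which leans on that array.

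**Figure D1:**
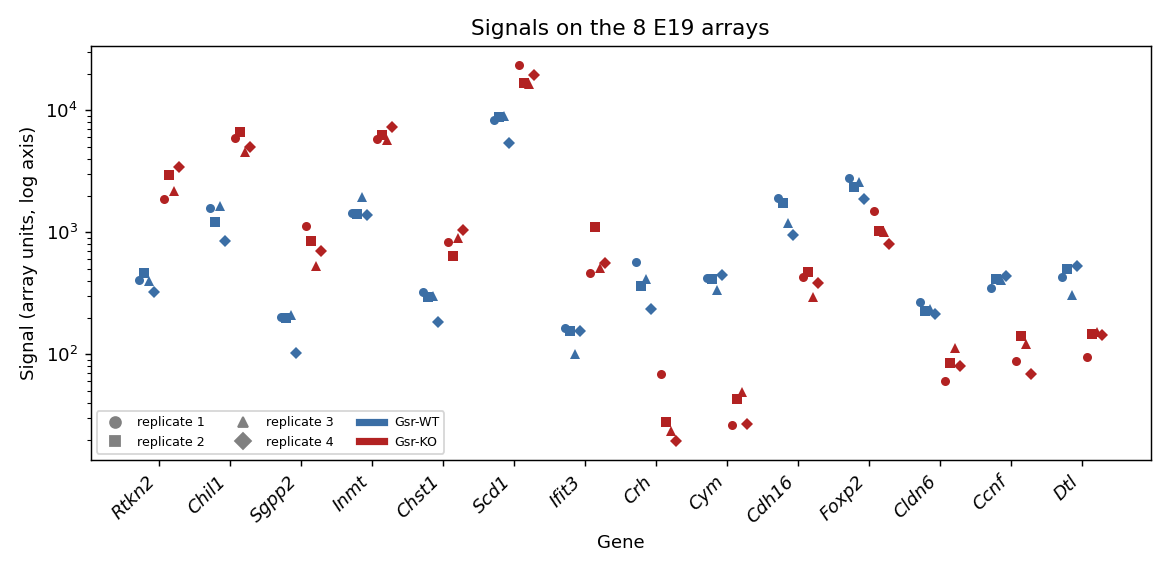
Signals of 14 genes on the 8 E19 arrays, on a log axis in array units; blue marks are WT and red marks KO, with 1 shape per replicate. Of the genes shown, all 4 KO marks lie above all 4 WT marks from Rtkn2 to Ifit3 and below them from Crh to Dtl.

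The 17 higher genes are ordered here by their known roles, an order made after their values were seen and not tested. Of them Rtkn2, Chil1 and Lyz1 belong to the lists of alveolar cells, and Krt80, Chia1 and Inmt, given after them, belong to none of the lists. Rtkn2, a marker of type 1 cells, read 406, 465, 401 and 323 in WT and 1867, 2927, 2194 and 3436 in KO, with every KO array far above every WT array. Its change was 2.60 (SE 0.15, adjusted p = 6.3e-12). Chil1, a chitinase-like protein of type 2 cells and macrophages, read 1582, 1221, 1634 and 846 in WT and 5949, 6618, 4544 and 5031 in KO. Lyz1, a lysozyme of type 2 cells, read 8499.5, 9053, 12290.0 and 11532 in WT and 30752, 22579, 23182 and 24861 in KO. Both rose on all 4 KO arrays, by 2.08 and 1.30, and with the liver covariate Chil1 changed by 1.70 and Lyz1 by 1.50. Krt80, a keratin of differentiating epithelia, read 293, 271, 269 and 207 in WT and 989.8, 1082, 758 and 1138 in KO, a change of 1.82. Chia1, an acidic chitinase of the airways, read 705, 763, 656 and 527 in WT and 2433, 2560.1, 1654 and 1939 in KO, a change of 1.65. Inmt, an N-methyltransferase abundant in lung, read 1440.0, 1407, 1938 and 1396 in WT and 5837, 6241, 5771 and 7282 in KO, with a narrow KO range and a change of 2.01.

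The next 6 genes of the 17 encode proteins that act on or bind lipids, and of them Scd1 alone is in the lipid synthesis list. Scd1, the desaturase that makes monounsaturated fatty acids, read 8390.3, 8806, 9068 and 5445 in WT and 23672, 16837, 16423 and 19453 in KO. Acoxl, an acyl-CoA oxidase-like enzyme, read 327, 343, 451 and 211 in WT and 896, 1449.7, 1012 and 1202 in KO. Scd1 changed by 1.28 and Acoxl by 1.72, and WT replicate 4 was lowest in both. Sgpp2, a sphingosine-1-phosphate phosphatase, read 203, 198, 209 and 103 in WT and 1135, 856, 534 and 705 in KO, with a change of 2.02. Acer2, an alkaline ceramidase, read 1685, 1323, 1018 and 742 in WT and 3079.7, 3941, 3213 and 4749 in KO, with a change of 1.67. Lpar3, a receptor for lysophosphatidic acid, read 191, 137, 152 and 123 in WT and 946, 534, 1063 and 487 in KO, with a change of 2.08 and KO arrays that spread from 487 to 1063. Lipg, endothelial lipase, read 106, 85.8, 95.9 and 117 in WT and 285, 344, 255 and 311 in KO, a change of 1.35.

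The remaining members of the 17 are of mixed origin. Chst1, a sulfotransferase, read 323, 293, 302 and 184 in WT and 833, 644, 897 and 1045 in KO, a change of 1.55. C6, a component of the complement lytic complex, read 202, 144, 201 and 88.1 in WT and 627, 771, 439.6 and 480.3 in KO, a change of 1.73. Ecm2, a matrix protein, read 76.1, 49.7, 79.7 and 50.8 in WT and 347, 152, 243 and 297 in KO, a change of 1.63 and 1.12 with the WT arrays set at 100.4, the median of all values. Ifit3 is described with the interferon genes. Saraf, which limits store-operated calcium entry, was at 1.17, and its difference from the postnatal mean was 0.05 (limma adjusted p = 0.869). It was at 1.12, 1.34, 0.82 and 1.23 in P5 air, P5 hyperoxia, P56 air and P56 hyperoxia, so its rise was not particular to E19. Whether this change is tied to the knockout locus was not tested.

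Of the 14 genes lower in KO, 2 fell the most. Crh, corticotropin-releasing hormone, read 568, 364, 414 and 237 in WT and 68.3, 27.8, 23.3 and 19.3 in KO. Cym, chymosin, a stomach protease, read 422, 413, 338 and 443 in WT and 26.4, 43.0, 49.1 and 26.7 in KO. Crh changed by -2.79 and Cym by -2.79, and by -1.68 and -1.76 with the KO arrays set at 100.4. Cdh16, a cadherin first known from kidney, read 1908, 1752, 1200.4 and 955 in WT and 428, 469.7, 297 and 382 in KO, a change of -1.78. Plb1, a phospholipase, read 692, 616, 708 and 819.9 in WT and 265, 321, 129 and 175 in KO, a change of -1.63. Cldn6, a claudin of embryonic epithelium, read 269, 227, 236 and 212 in WT and 60.2, 84.2, 113 and 79.6 in KO, a change of -1.26. Ccnf, Nusap1, Dtl, Chtf18, Cdc7 and Wdhd1 are given with the genes of division, Gsr stands above, and the uncharacterised BC055324 was at -1.27 and Arhgap19 at -1.24.

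Beyond the core, 2 genes of the developing lung also fell in the fit of all arrays and with the liver covariate. Foxp2, a transcription factor of distal lung epithelium, read 2771, 2345, 2571 and 1883 in WT and 1509.8, 1026, 1006 and 805 in KO, a change of -1.14 and -1.36 with the covariate. Nnat, neuronatin, an imprinted gene, read 1846, 1990.3, 1649.7 and 1947 in WT and 126, 748, 861 and 488 in KO, a change of -1.97 and -1.99 with the covariate. Neither was called in the fit of the E19 arrays alone (adjusted p = 0.0902 and 0.146).

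Epithelial lists went in different directions: those of type 1, type 2 and club cells were higher in KO, and those of tip progenitors, basal cells and junctions had medians below 0. The share of called genes in any list is to be read against 15.2% of all genes, and in these bulk samples fewer cells of a type and less RNA per cell cannot be told apart. Type 1 cells were represented by 25 genes, 9 of which rose and none of which fell, with a median change of 0.33 against -0.05 for all genes, 0.18 with the liver covariate and 0.14 without KO replicate 1. Col4a3, a basement membrane collagen chain, read 1138, 1148, 784 and 360.4 in WT and 5496, 2482, 1522 and 3193 in KO, a change of 1.83. Its partner chain Col4a4 ran from 1776 to 3653 in WT and 4459 to 9847 in KO and rose by 1.16. Cyp2b10 rose by 1.01 and Pdpn, the podoplanin that marks type 1 cells, by 0.55. The type 1 genes named here all have a change above 0, while 16 of the 25 were not called and 6 had a change below 0. With the liver covariate Rtkn2 was the only called gene of the list, while Col4a3 was at 1.36 (adjusted p = 0.131).

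Of 22 type 2 and surfactant genes 12 rose and 1 fell, with a median of 0.61, 0.40 with the liver covariate and 0.39 with WT replicate 1 alone. Sftpa1, a surfactant protein, read 7402, 7179, 6467 and 4746 in WT and 17980.0, 13493, 11172 and 11983 in KO, a change of 1.08. Sftpa1 was one of 5 type 2 genes still called with the covariate, at 0.85. On every KO array the level of the list, the mean log2 difference of its genes from their 8-array means, lay above every WT array (0.13 to 0.49 against -0.41 to -0.17). S100g, a calcium-binding protein, rose by 1.69, Pla2g1b, a secreted phospholipase, by 1.20, Il33, an alarmin, by 1.15 and Cd74, the class II invariant chain, by 1.12. Etv5, an FGF-responsive factor in type 2 cells, fell by 0.90 on the log2 scale.

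Of 13 distal tip progenitor genes 4 fell and 1 rose, with a median of -0.21, which became 0.07 under median centring. Among 17 lung transcription factors Sox4 rose by 0.57, but the mean of all its kept probe sets was -0.11, and Klf5 and Foxp2 fell, Klf5 by 0.68. Of 21 club and secretory genes 10 rose and none fell, with a median of 0.81 and 0.39 with the covariate. Club calls numbered 2 with the covariate, 1 with WT replicate 1 alone, 5 without WT replicate 4 and 6 each without WT replicate 3 and without KO replicate 1. Cyp4b1, a cytochrome P450 of the airway, read 1344, 1421, 1235 and 1078 in WT and 4241, 3658, 2453 and 2593 in KO, a change of 1.30. Chad rose by 2.78 (1.54 with the WT arrays set at 100.4), Retnla by 1.68 and Scgb1a1, the main club cell protein, by 0.50. Of 31 ciliated cell genes 4 rose and 1 fell: Spef2 rose by 1.09 and Ccno fell by 1.0.

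Of 22 epithelial junction genes 2 rose and 4 fell, with a median of -0.09 and -0.40 with the liver covariate.

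Basal and squamous genes had a median below 0, and the WT arrays differed among themselves. Krt13, a keratin of stratified epithelium, read 3271, 39.3, 1179 and 47.0 in WT and 7.02, 8.71, 4.14 and 4.62 in KO. High signals came from WT replicates 1 and 3 alone. The list fell in 6 of 15 genes, with a median of -0.82, and its level was 1.92 and 0.81 in those 2 arrays, -0.38 and -0.22 in WT replicates 2 and 4, and -0.63 to -0.45 in KO. Without WT replicate 1 the median was -0.23 and 2 genes were called, without WT replicate 3 it was -0.76 with 2 called, and without KO replicate 4 it was -0.83 with 3 called. The liver covariate gave 8 calls at a median of -2.05.

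Most vascular lists were higher in KO, the venous list less clearly. Of 29 general capillary genes 13 rose and none fell, with a median of 0.44 and 0.27 with the liver covariate, where 1 was called; without WT replicate 4, 8 were called. Of 11 venous genes 3 rose and 1 fell, with a median of 0.09, which was -0.08 with the liver covariate and -0.08 with WT replicate 1 alone. Of 14 aerocyte genes, which mark the capillary cells facing the airspace, 6 rose, with a median of 0.31. Car4, a carbonic anhydrase of aerocytes, read 551, 587, 682 and 479 in WT and 1161, 3138, 1696 and 1629 in KO, a change of 1.60. Aerocyte calls were 3 with the covariate, Car4 among them at 1.39 (adjusted p = 0.0299). Tmem100, an endothelial membrane protein, read 702, 591, 631 and 367 in WT and 2476, 1744, 1117 and 1623 in KO, a change of 1.54.

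Transcription factors and receptors of the vessel wall also rose: Sox17 by 1.15, Sox7 by 1.29, the angiopoietin receptor Tek by 1.13 and its ligand Angpt1 by 0.96. Of 26 angiogenic factors and receptors 10 rose and none fell, with a median of 0.41 and 0.11 with WT replicate 1 alone, including Vegfc at 1.05, Vegfd at 0.91 and Nrp1 at 0.81. Without WT replicate 4 the angiogenic calls numbered 2, and 6 each without KO replicate 1 and KO replicate 4. Of 14 arterial genes 5 rose, with Hey2 at 1.33 and Edn1 at 1.08, and of 12 lymphatic genes 7 rose, with a median of 0.61; without WT replicate 4 these counts were 2 and 4. Nts, a lymphatic peptide gene, rose by 1.62, but its ranges overlapped, from 46.4 to 134 in WT and 76.4 to 729 in KO. Epas1, the hypoxia-inducible factor of endothelium, read 8289.7, 8123, 8891 and 4925 in WT and 17038, 12320.0, 13006 and 13134 in KO, a change of 0.90, and WT replicate 4 lay below its group. With the liver covariate the arterial, lymphatic and angiogenic medians were 0.16, 0.34 and 0.19, and none of their calls held.

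**Figure D2:**
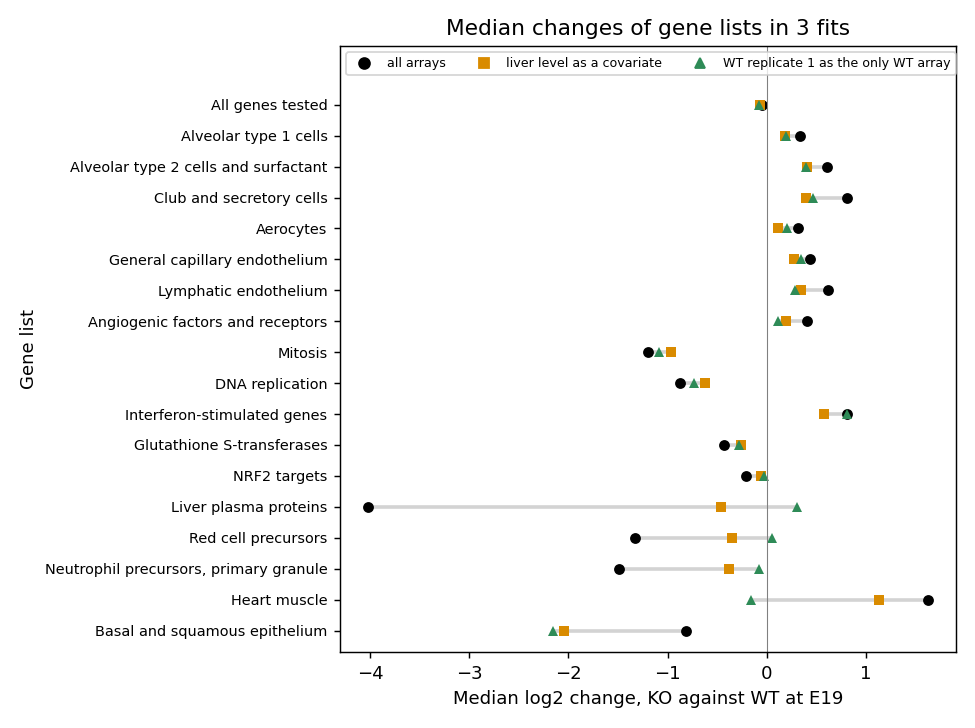
Median log2 change of 17 gene lists and of all genes, KO against WT at E19, in 3 fits: all arrays (black circles), liver level as a covariate (orange squares) and WT replicate 1 as the only WT array (green triangles). Liver, red cell and neutrophil precursor lists move toward 0 or past it in the latter fits, while the mitosis list goes from -1.20 to -0.97 and -1.09.

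In connective tissue the share of called genes ran from 5.6% in the elastic fibre list to 31.2% in the lipofibroblast list, against 15.2% of all genes. Of 16 matrix fibroblast genes 3 rose, including the integrin Itga8 at 0.73. Of 16 lipofibroblast genes 4 rose and 1 fell, among them the leptin receptor Lepr at 1.50, lipoprotein lipase Lpl at 0.83 and Pparg at 0.70. Of 24 basement membrane genes 5 rose and 1 fell, including Lama2 at 1.08, and of 22 collagen genes 2 rose and 2 fell, with Pcolce at 0.77 and Col12a1 at -0.97. Of 18 elastic fibre genes 1 rose, Fbln5 at 0.61. The BMP antagonist Bmper rose by 1.07, dermatopontin Dpt by 1.19, and Bmp4 read 3179.8, 2647, 2982 and 2394 in WT and 1417, 2284, 1826 and 2009 in KO, a change of -0.58. Of 30 TGF-beta and BMP genes 5 rose and 2 fell, with Bmpr2 at 0.87, Id4 at 0.71 and Tgfb2 at -0.62.

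In the signalling, hormone, clock, transport and growth lists named in this paragraph, the share of called genes ran from 11.5% for glucocorticoid genes to 35.3% for lung liquid transport. Wnt was at 15.2%, the same as all genes. In 33 Wnt genes 2 rose and 3 fell, with Wnt7b at -0.71; in 13 Hedgehog genes 2 rose, Gas1 by 1.06, and 1 fell, Gli1 at -0.60; in 20 FGF genes 3 rose, Spry2 by 0.71, and 1 fell. In 18 Notch genes 3 rose, Notch4 by 0.56. Of 26 glucocorticoid genes 3 rose, where Klf9, a glucocorticoid-induced factor, read 4375, 5071, 5199.5 and 3710.3 in WT and 12027, 8876, 6655 and 10153 in KO, a change of 1.01, and Tsc22d3 rose by 0.48, although the mean of its probe sets was -0.05. Of 18 clock genes 3 rose: Nr1d2, a clock repressor, read 772, 711, 789 and 902 in WT and 2002, 1421, 2272 and 1518 in KO, a change of 1.14, and Rora and Bhlhe40 rose by 0.59 and 0.89. Of 17 genes of lung liquid transport 5 rose and 1 fell, including the sodium channel subunit Scnn1g by 0.93 and the water channel Aqp4 by 1.45. In 23 growth and imprinted genes 1 rose and 4 fell, Igf1 by 0.71.

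Genes of cell division were lower as a group. Of 46 mitosis genes 42 fell and none rose, with a median of -1.20. For 38 of the 46, called or not, the groups did not overlap. The background shares are 8.25% called lower and 10.1% without overlap. The median was -0.97 with the liver covariate, where 4 were called, Aurka, Kif23, Kif4 and Nusap1, and -1.09 with WT replicate 1 alone. In the fit of the E19 arrays alone 1 of the list was called, Nusap1. On the 4 KO arrays the list level was -0.92, -0.89, -0.21 and -0.28, and on the WT arrays 0.51, 0.74, 0.33 and 0.72. KO replicates 1 and 2 were the lowest, and the groups did not overlap.

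Of its members, Aurka, a spindle kinase, read 689, 676, 634 and 894 in WT and 109, 216, 443 and 262 in KO, a change of -1.53. Nusap1, which bundles spindle microtubules, read 1733, 2094, 1814 and 2615 in WT and 744, 765, 1009 and 729 in KO, a change of -1.31. Ccnf, cyclin F, one of the core genes but not of the list, read 349, 412, 404 and 437 in WT and 87.4, 142, 121 and 68.8 in KO, a change of -1.73. In all 3 the lowest WT array exceeded the highest KO array. Ube2c, the ubiquitin enzyme of the anaphase-promoting complex, ran from 1959.5 to 3791 in WT and 106 to 2179.9 in KO. It changed by -1.71, with 1 KO array inside the WT range. Birc5, Ccna2, Aurkb and Plk1 fell by 1.77, 1.65, 1.66 and 1.53 on the log2 scale.

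The CHR, or cell cycle homology region, is a promoter element of many mitosis genes, and 3 called members that hold its letters are shown for that reason. Promoters run from 250 bases before to 50 after the start, are from RefSeq on GRCm38.p6, read 5' to 3' on the gene's strand, with TTTGAA or TTCGAA (either strand) in capitals; the gene positions are Ube2c chr2:164769679-164769978 (+), Plk1 chr7:122159185-122159484 (+) and Aurka chr2:172370521-172370820 (-).
Ube2c: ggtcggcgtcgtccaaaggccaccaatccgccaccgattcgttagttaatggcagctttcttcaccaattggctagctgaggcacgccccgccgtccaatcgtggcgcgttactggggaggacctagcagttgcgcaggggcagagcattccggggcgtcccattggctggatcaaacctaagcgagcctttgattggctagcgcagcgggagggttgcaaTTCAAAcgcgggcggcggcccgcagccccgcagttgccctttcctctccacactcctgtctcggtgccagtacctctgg
Plk1: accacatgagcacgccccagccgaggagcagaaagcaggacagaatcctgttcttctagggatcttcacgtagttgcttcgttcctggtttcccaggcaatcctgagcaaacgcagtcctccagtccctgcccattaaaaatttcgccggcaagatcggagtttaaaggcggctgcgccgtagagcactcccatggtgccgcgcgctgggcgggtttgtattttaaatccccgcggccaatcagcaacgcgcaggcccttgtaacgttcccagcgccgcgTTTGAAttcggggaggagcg
Aurka: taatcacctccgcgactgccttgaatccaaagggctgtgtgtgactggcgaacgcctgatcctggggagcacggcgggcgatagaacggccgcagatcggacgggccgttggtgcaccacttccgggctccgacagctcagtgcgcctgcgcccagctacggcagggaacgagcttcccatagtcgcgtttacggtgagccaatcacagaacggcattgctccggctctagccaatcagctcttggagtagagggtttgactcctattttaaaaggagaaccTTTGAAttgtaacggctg
These letters occur in 6316 of 32851 listed promoters (19.2%), and in 1767 of 10713 tested genes with a listed promoter (16.5%). Of the 39 mitosis genes with a listed promoter 31 hold them, 29 of the 36 called and 2 of the 3 not called. The median change was -1.24 over the 31 genes with and -1.16 over the 8 without. A match describes letters, not binding.

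DNA replication moved alongside. Of 40 genes 32 fell and none rose, with a median of -0.88. The median was -0.63 with the liver covariate (1 called, Cdc7) and -0.73 with WT replicate 1 alone. Without WT replicate 4, 21 were called, and in the fit of the E19 arrays alone 1, also Cdc7. Outside the list, Dtl, a substrate receptor of the S phase ubiquitin ligase, read 429, 504, 308 and 528 in WT and 94.3, 147, 152 and 145 in KO, a change of -1.53, and KO replicate 1 was lowest. Chtf18, part of a clamp loader, read 75.6, 118, 54.7 and 70.0 in WT and 1.23, 1.56, 4.76 and 18.0 in KO. It was called, but all KO arrays and all but 1 WT array lay below 100.4, so no size is given. Cdc7 and Wdhd1, replication initiation and replisome factors, ran from 129 to 200 and 120 to 177 in KO against 388 to 608 and 353 to 671 in WT.

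Tk1, thymidine kinase, fell by 1.83, Cdc6 by 1.66, Uhrf1 by 1.46 and Mcm5 by 1.40. Of 25 E2F factors and G1/S cyclins 7 fell and 1 rose, Cdkn1a: 1201, 842, 695 and 702 in WT and 1907, 2875, 2524 and 2874 in KO, a change of 1.55. Ccne1, Ccne2 and E2f1 fell by 1.44, 1.57 and 1.11. Of 26 ribosome biogenesis genes 6 fell and 2 rose, with Heatr1 and Utp20 higher by 0.57 and 0.60. The other kept Heatr1 probe set was at -0.338.

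**Figure D3:**
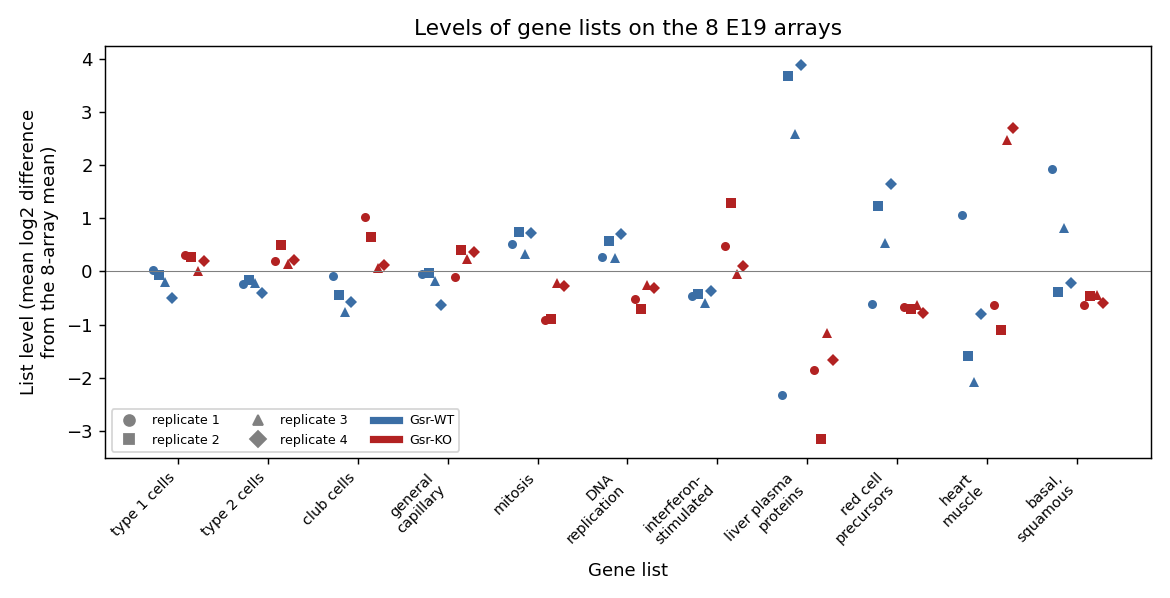
Level of 11 gene lists on each E19 array, as the mean log2 difference of the list's genes from their 8-array means; blue is WT, red KO, with 1 shape per replicate. The liver list is high in WT replicates 2, 3 and 4, the heart list in KO replicates 3 and 4 and WT replicate 1, and the mitosis list lies higher on all WT than on all KO arrays.

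Interferon-stimulated genes were higher in KO. Of 48 measured 29 rose and none fell, with a median of 0.81. For 27 of the 48, called or not, the groups did not overlap. Over all genes the shares are 6.91% called higher and 10.1% without overlap. KO replicate 2 was the highest array of the list, at 1.29 against 0.47, -0.04 and 0.11 in the other KO arrays and -0.59 to -0.37 in WT. Without it 23 rose and the median was 0.64 (all arrays 0.81). With the liver covariate the median was 0.58 and 2 were called, Ifit1 and Ifit3. In the fit of the E19 arrays alone 1 was called, Ifit3.

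Ifit1, an RNA-binding antiviral protein, read 186, 136, 116 and 119 in WT and 2188, 1220.1, 436 and 622 in KO, a change of 2.54. Ifit3, its partner, read 163, 155, 99.9 and 155 in WT and 462, 1099.9, 507 and 563 in KO, a change of 1.95. Both lay above WT on all KO arrays. Gbp2, an interferon-induced GTPase, read 239, 205, 252 and 162 in WT and 1134, 5867, 335 and 375 in KO, where KO replicate 2 accounted for the highest value and the change was 2.07. Gbp3 and Gbp6 rose by 2.39 and 2.39, with KO ranges of 715 to 4221 and 438 to 9769. B2m, the light chain of MHC class I, and H2-Aa rose by 0.74 and 1.23, and Tlr3, an RNA sensor, by 0.62.

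The interferon-stimulated response element is the promoter site of the interferon pathway, and 3 called members that hold its letters are shown for that reason. The search was for 2 copies of GAAA with 2 bases of any kind between them, on either strand, and capitals mark the matches; RefSeq positions on GRCm38.p6 are Ifit1 chr19:34640639-34640938 (+), Gbp3 chr3:142559794-142560093 (+) and Gbp2 chr3:142620413-142620712 (+).
Ifit1: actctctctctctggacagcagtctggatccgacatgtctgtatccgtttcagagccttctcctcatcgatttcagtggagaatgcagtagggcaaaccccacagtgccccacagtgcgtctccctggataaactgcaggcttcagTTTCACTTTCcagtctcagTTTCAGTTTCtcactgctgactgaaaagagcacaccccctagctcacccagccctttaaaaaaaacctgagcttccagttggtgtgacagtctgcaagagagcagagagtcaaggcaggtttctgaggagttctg
Gbp3: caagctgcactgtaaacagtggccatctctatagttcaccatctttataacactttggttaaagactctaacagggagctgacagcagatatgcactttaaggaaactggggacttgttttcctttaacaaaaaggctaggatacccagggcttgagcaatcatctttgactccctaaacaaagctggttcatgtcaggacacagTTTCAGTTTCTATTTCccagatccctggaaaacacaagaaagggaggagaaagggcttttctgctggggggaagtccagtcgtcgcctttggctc
Gbp2: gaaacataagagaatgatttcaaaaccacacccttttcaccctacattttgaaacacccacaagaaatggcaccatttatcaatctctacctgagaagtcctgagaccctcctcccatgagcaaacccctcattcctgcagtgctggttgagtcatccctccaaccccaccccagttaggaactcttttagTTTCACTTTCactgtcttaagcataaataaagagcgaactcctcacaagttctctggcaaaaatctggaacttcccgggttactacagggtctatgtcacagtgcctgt
These letters are in 1131 of 32851 listed promoters (3.44%) and in 393 of 10713 tested genes with a listed promoter (3.67%). Of the 36 interferon genes with a listed promoter 19 hold them: 10 of 21 called and 9 of 15 not called. The median change was 0.85 over the 19 with and 0.73 over the 17 without.

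Of the glutathione and oxidant-defence lists, the share of called genes was 24.0% for glutathione synthesis and transport, 28.6% for S-transferases and 23.1% for NRF2 targets, against 15.2% of all genes. It was 11.1% for the list of peroxidases, superoxide dismutases and related genes and 13.6% for the thioredoxin system. None of these lists held a call with the liver covariate, and without WT replicate 4 the first 3 had 3, 3 and 5 calls, against 6, 6 and 9. Of 25 genes of glutathione synthesis, transport and breakdown 2 rose and 4 fell: Ggct rose by 0.70 and Abcc4, an exporter, by 0.82, while Gclm, part of the rate-limiting ligase, and Cbs and Cth, of the transsulfuration route, changed by -0.59, -1.47 and -1.17. With WT replicate 1 alone those 3 were at 0.04, -0.04 and 0.16. The other kept Gclm probe set was at 0.0995 in the fit of all arrays. Of 21 glutathione S-transferases 6 fell and none rose, with a median of -0.43 and -0.26 with the liver covariate, where none was called. Gstt1, a theta-class transferase, read 1170.4, 2687, 1839.8 and 2861 in WT and 699.6, 872, 583 and 748 in KO, a change of -1.46, and WT replicate 1 was closest to the KO arrays. Gstt2, Gstz1 and Gsta3 changed by -1.26, -1.37 and -1.98, and by -0.86, -0.79 and -0.07 with WT replicate 1 alone.

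Of 39 NRF2 targets 2 rose and 7 fell, with a median of -0.21; Osgin1 fell by 1.65. Bach1, a repressor of that pathway, rose by 0.89, while its other kept probe set was at -0.025. The next list holds 18 genes: glutathione peroxidases, peroxiredoxins, catalase, superoxide dismutases, methionine sulfoxide reductases and Srxn1. Of these 1 rose, Sod2, and 1 fell, Gpx4. Gpx4, which reduces lipid peroxides, read 7897, 8479, 8216 and 6497 in WT and 5122, 4418, 4819.8 and 4430.1 in KO, a change of -0.72. Sod2, mitochondrial superoxide dismutase, read 4041, 3635, 2576 and 2698 in WT and 7958, 3802, 7757 and 7080.3 in KO, a change of 1.0, and KO replicate 2 lay inside the WT range. The thioredoxin and glutaredoxin list of 22 genes also holds selenoprotein genes. In it 2 rose, Txnrd3 by 0.50 and Glrx by 0.48, with -0.14 for the mean of the Glrx probe sets. Sephs2, the 1 that fell, is neither a thioredoxin nor a glutaredoxin. It was at -1.09, and at 0.01 with WT replicate 1 alone.

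Of 23 NADPH genes 2 rose and 1 fell: Nadk, NAD kinase, read 1130.3, 1244, 1203 and 1135 in WT and 1681, 2089.7, 1591 and 1822 in KO, a change of 0.59 (-0.08 for the mean of its probe sets), Nox4, a superoxide-producing oxidase, rose by 1.24, and Aldh1l1 changed by -1.29. Phgdh and Psat1, of serine synthesis, fell by 1.67 and 1.01. In 13 metallothionein and zinc genes the zinc importer Slc39a8 rose by 1.15. Of 15 heat shock genes 4 rose, among them Cryab by 0.94 and Hspa1a by 1.0. In 23 cholesterol genes 5 fell and 1 rose, with Fdps at -1.17 and Lss at -0.97. With WT replicate 1 alone Lss was at 0.09. Called shares were 13.0% for NADPH, 30.8% for metallothionein and zinc, 26.7% for heat shock and 26.1% for cholesterol genes. The share over all genes was 15.2%. Without WT replicate 4 these lists held 2, 1, 2 and 1 calls, against 3, 4, 4 and 6.

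In the immune and metabolic lists that follow the share of called genes ran from 5.1% for oxidative phosphorylation to 44.4% for mast cells, against 15.2% of all genes. Of 9 mast cell genes 4 rose: Hdc, histidine decarboxylase, read 330.3, 350.0, 318 and 196 in WT and 867, 758, 589.9 and 966 in KO, a change of 1.35, and the proteases Cpa3 and Cma1 rose by 1.08 and 0.88. Of 28 macrophage genes 3 rose and 1 fell, including Ctss, a lysosomal protease, at 0.94. Of 23 lymphocyte genes 1 rose and 3 fell, Gzmb, granzyme B, by 1.03. Of 35 lipid synthesis genes 4 rose and 2 fell: beside Scd1, the elongase Elovl1 and Chpt1, of phosphatidylcholine synthesis, rose by 0.89 and 0.70, and Pemt fell by 2.11, with -0.68 for WT replicate 1 alone. Of 26 hypoxia response genes 4 rose and 1 fell, with Hif1a at 0.45. Other kept Hif1a probe sets were at 0.13 and -0.052. Of 39 oxidative phosphorylation genes 2 rose, although the list level was 0.73 in KO replicate 3 and at most 0.24 on any other array. Of 27 unfolded protein and ATF4 target genes 3 rose and 5 fell, and Asns, asparagine synthetase, went from -0.96 to 0.02 with WT replicate 1 alone.

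Transcripts of liver, red cell precursors and heart were high on some of the E19 arrays. WT levels of the liver list lay between -2.32 and 3.89 and KO levels between -3.16 and -1.15. For the heart list WT levels lay between -2.09 and 1.07 and KO levels between -1.10 and 2.69, so the groups overlapped in both. Ahsg, a liver plasma protein, read 141, 17071, 8589.6 and 20770.0 in WT and 57.7, 9.35, 497 and 414 in KO, and Hemgn, of red cell precursors, read 39.7, 3258, 1088 and 4809 in WT and 151, 56.2, 129.5 and 43.9 in KO; both were high in WT replicates 2, 3 and 4 and low in WT replicate 1. Of 24 liver plasma protein genes 24 fell, with a median of -4.02; the median was -0.47 with the liver covariate and 0.31 with WT replicate 1 alone. Of 31 red cell precursor genes 24 fell, with medians of -1.33, -0.35 and 0.05 in those fits, and of 9 primary granule genes 6 fell, with -1.49, -0.38 and -0.08. No call in these lists held with the liver covariate, which is made from Ahsg, Apoa1 and Ttr, themselves members of the liver list.

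Mb, myoglobin of heart muscle, read 308, 11.3, 4.64 and 40.2 in WT and 139.7, 74.2, 17481 and 12831 in KO: high values were on KO replicates 3 and 4. Of 25 heart genes 7 rose, with a median of 1.62 and -0.16 with WT replicate 1 alone, whose heart level was 1.07. Leaving out any 1 array moved that count to between 3 and 19. The part of heart RNA in the other lists was not tested.

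Genes were also grouped by their change between P5 and P56 in WT lungs in air. Those arrays are outside the E19 contrast but share its estimate of the spread. A gene with a small spread is thus more readily called in both, so shares called in both are not independent. Of 1610 genes higher at P56, 359 rose and 35 fell in KO at E19 (median 0.23), and of 1442 lower at P56, 39 rose and 389 fell (median -0.22); among 10293 genes not called between those ages 524 rose and 677 fell (median -0.07). With the liver covariate the medians were 0.16, -0.24 and -0.09. Without the mitosis, replication, red cell and liver lists the lower group, 1330 genes, had 39 rising and 287 falling, with a median of -0.19. Among the 31 core genes 14 of the 17 higher ones were higher at P56 and none was lower, against 12.1% of all genes, and 10 of the 14 lower ones were lower at P56, against 10.8%; Gsr and Plb1 were higher.

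The difference between the KO effect at E19 and its mean over the 4 postnatal conditions was tested for each gene, and 1556 genes were called (11.7%), 678 with a larger value at E19 (5.08%) and 878 with a smaller one (6.58%). The postnatal KO comparisons called 2 genes (0.0150%), 25 (0.187%), 8 (0.0599%) and 4 (0.0300%) in P5 air, P5 hyperoxia, P56 air and P56 hyperoxia. Lists of other tissues moved there too: the liver plasma protein median was -3.47, -1.65, -0.22 and -0.08. Skeletal muscle and basal medians were -1.14 and -0.65 in P5 air and 2.24 and 1.87 in P5 hyperoxia. The part of such transcripts in the postnatal mean was not tested. For Rtkn2 the changes were 0.29, -0.16, 0.06 and 0.21 in those conditions and the difference was 2.50 (SE 0.17, adjusted p = 5.24e-10). For Crh they were 0.09, -0.42, -0.03 and -0.26, with a difference of -2.64 (SE 0.31, adjusted p = 8.48e-06). Of the 31 core genes 29 differed, Gsr and Saraf being the exceptions: the Gsr difference was 0.31 (limma adjusted p = 0.27). The core was selected for its change at E19, which is part of this difference, so the count of 29 only describes the core. In the mitosis list 41 of 46 differed, and in the interferon list 22 of 48. In P5 air, P5 hyperoxia, P56 air and P56 hyperoxia the mitosis median was -0.376, 0.154, 0.089 and -0.014. The replication median was -0.493, 0.104, 0.125 and 0.106, so both lists were also lower in KO in P5 air. With the liver covariate 74 genes differed, with WT replicate 1 alone 51, and without WT replicate 4, 724.

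**Figure D4:**
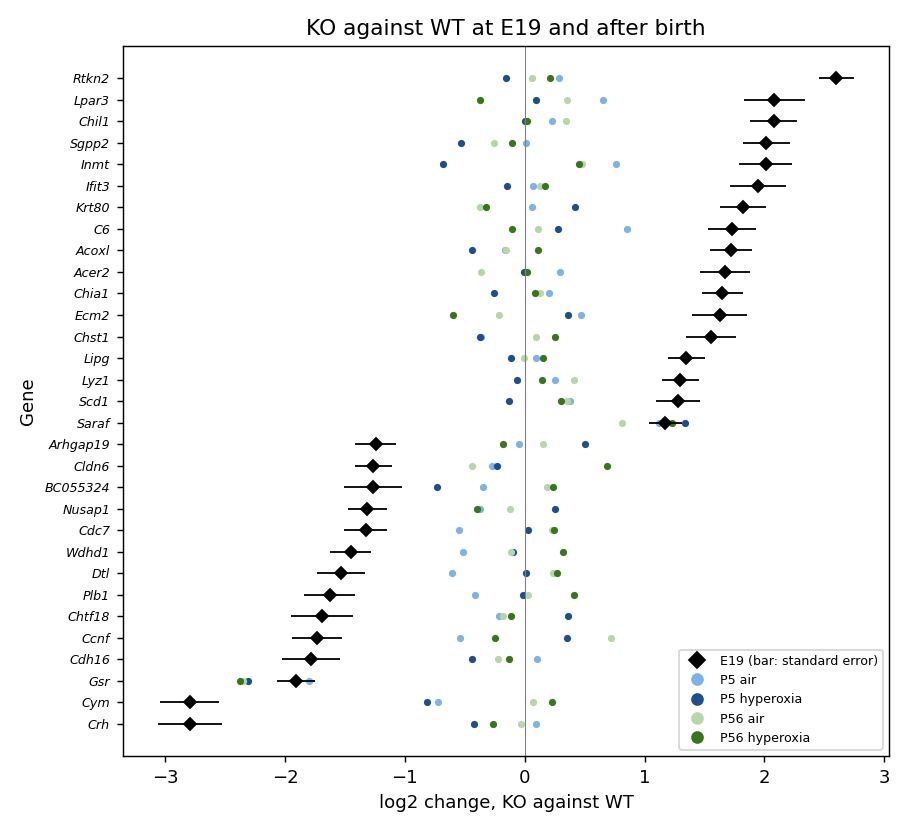
Change in KO against WT of the 31 core genes, at E19 (black diamonds, bars are the standard error) and in the 4 postnatal conditions (circles). Postnatal circles lie nearer 0 than the E19 diamond for all genes shown except Gsr and Saraf. The genes were selected for their change at E19.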

How the data were processed

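Whole-lung RNA was measured on Affymetrix Mouse 430_2 arrays, 32 in 10 groups, and every array entered the fit. The values used are the series' deposited intensities, 1 per probe set and array on a linear scale. The submitters' processing notes name MAS5, and its version, scan dates and detection calls are not given in the sources used here. In the values, the mean without the lowest and highest 2% is 500 on every array. No column was left out (0 unused).

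From these intensities log2(signal + 26.3) was computed. Of 45101 probe sets, 64 are controls, 9160 have no gene symbol and 932 have several in the platform annotation. The filter kept the 27089 that passed 100.4 (the overall median value) on 3 arrays or more, and 23428 of these had 1 symbol. The kept probe set with the highest mean stood for each of 13345 genes. Of 1478 other kept probe sets of called genes, 395 had the opposite sign and 4 were called in the opposite direction. limma 3.58.1 in R 4.3.3 fitted 1 mean per group with a variance trend (22 residual degrees of freedom), and contrasts were adjusted by Benjamini-Hochberg over all genes at 0.05. The scripts were tested on simulated data. Control probe sets gave the 3'/5' ratio, and promoters came from RefSeq on GRCm38.p6.

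The comparison's members and all 81 gene lists were chosen with earlier results of these data known, and the counts over lists describe them only. The naming rule took Gsr, the 3 liver transcripts, the 15 highest and 15 lowest changes called in the fit of all arrays and with the liver covariate without overlap, and up to 4 called members of each list in each direction, from which a part is printed. Sftpa1, Lipg, Nusap1, Saraf, Pdpn, Scgb1a1, Plk1, Kif23, Kif4, Cdc7, Wdhd1, Arhgap19 and BC055324 fall outside it and were chosen after their values were seen, as were the 31 core genes as a group. Replicate numbers did not pair the arrays: the deviations of same-numbered WT and KO arrays from their group means correlated at -0.117, -0.0571, -0.149 and -0.234. Alternatives changed the offset, filter, scaling, probe set rule, variance prior, array weights, arrays in the fit, the replicate block, and covariates for liver and Y-linked levels. Each E19 array was also left out in turn, and 2 alternatives were added after seeing the data.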

Additional observations from a re-analysis of the deposited data

Results flagged for a closer look

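For E19 genes named in the text and levels of some gene lists, 116 groups of 4 arrays were examined for an array far from the other 3. Of these 9 held one, all of them for genes, where chance gives about 1 in 20. The gap to the nearest array, as a share of the group's range, was 0.919 for Sgpp2, 0.847 for Scd1, 0.847 for Epas1 and 0.831 for Hdc, each with WT replicate 4 lowest. It was 0.905 for Inmt with WT replicate 3 highest and 0.887 for Ifit3 with WT replicate 3 lowest. In KO it was 0.903 for Dtl with replicate 1 lowest, 0.842 for Sod2 with replicate 2 lowest and 0.854 for Nusap1 with replicate 3 highest.

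The KO effect at E19 differed from its postnatal mean for 1556 genes by the limma test of the difference. Among the 10 examples with signals given in full, it was larger at E19 for Rtkn2 by 2.50 (adjusted p = 5.24e-10), Ifit1 by 2.45 (0.000211), Sgpp2 by 2.24 (1.01e-06), Chil1 by 1.92 (8.48e-06), Krt80 by 1.88 (8.48e-06) and Inmt by 1.76 (0.000175). The difference was negative for Crh at -2.64 (limma adjusted p = 8.48e-06), Cym at -2.48 (8.48e-06), Ccnf at -1.80 (6.62e-05) and Nusap1 at -1.15 (0.000598).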

How the results depend on the processing

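Against 2023 genes called at E19, the total was 40 in the fit of the E19 arrays alone, which has fewer arrays, and 1287 with array weights, 1007 of them among the 2023 in the same direction. It was 100 with the liver level at its own slope, 172 with 1 slope for all arrays, and 60 with WT replicate 1 as the only WT array, a fit with fewer arrays. Leaving out each array in turn gave 1140 (without WT replicate 4) to 2768 (without KO replicate 2). Of 2 alternatives chosen after seeing the data, WT replicate 1 against KO replicates 2, 3 and 4 called 74, and the E19 arrays alone with the liver covariate called 0 by limma, with 475 at an unadjusted p under 0.05. For the difference from the postnatal mean, 1556 genes in all, the counts were 74 and 782 with the liver covariates, 51 with WT replicate 1 alone, 66 for replicate 1 against KO replicates 2, 3 and 4, and 724 (without WT replicate 4) to 2147 (without KO replicate 2) with 1 array left out. The cause of these differences in count was not tested, and this includes the fits with fewer arrays. The remaining alternatives kept both counts within 1.5 times; at E19 these were no filter 1929, stricter filter 1669, offset of 1 1921, larger offset 2040, quantile 2075, centring 3026, mean of probe sets 2085 (669 higher and 1416 lower), no variance trend 1975 and the Y-linked covariate 2159. With the replicate number as a block, though the numbers do not pair the arrays, 2534 genes were called at E19 and 2145 for the difference. Of the 158 called genes named, 154 stayed called in the same direction under quantile normalization, 144 under centring, 157 with the block, 122 with array weights, 62 with 1 liver slope, 47 with its own slope, 32 in the E19 arrays alone and 26 with WT replicate 1 alone.

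Signs that turned were these. With the liver covariate at its own slope Apoa1 was at 0.00 and Ttr at 0.43, and with 1 slope Ttr was at 0.51. The covariate is the mean level of Ahsg, Apoa1 and Ttr, so their own changes cancel out in these fits by construction. The own-slope covariate is constant on all other arrays. The E19 arrays alone with the covariate therefore gave the same changes (0.00 and 0.43) and add no second check. With WT replicate 1 alone Hemgn was at 0.77, Apoa1 at 0.63, Ttr at 0.97, Gclm at 0.04, Cth at 0.16, Sephs2 at 0.01, Asns at 0.02 and Lss at 0.09. Against KO replicates 2, 3 and 4, replicate 1 gave Ahsg 0.27, Hemgn 0.55, Apoa1 0.60, Ttr 0.63, Gclm 0.12, Cth 0.02, Sephs2 0.14, Gsta3 0.11, Aldh1l1 0.02 and Pcolce -0.03. The mean of all kept probe sets gave Nadk -0.08, Glrx -0.14, Sox4 -0.11 and Tsc22d3 -0.05. In that setting 137 of the 158 called genes named stayed called in the same direction. A further 17 were no longer called, and these 4 turned sign. Apart from the liver covariate fits, the cause was not tested beyond the choice of arrays or probe sets itself.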
